A study of Mus musculus with 4 samples.

Results

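The markers of Kupffer cells and macrophages are 34 listed genes, of which 33 were matched by name to 44 of the 39429 non-control probes on the arrays, and 32 entered the test among 16081 genes. The members were found by gene name alone, with Emr1 standing for Adgre1, by a rule that uses no measured value, although the list was drawn up with earlier results of these data known. Spi1 had no probe under that name, and Cd163 did not pass the filter on dim probes, being well above background in 2 of 4 AAV_Cre and 2 of 4 AAV_Null channels.

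RNA came from whole livers of female C57B/6 mice aged 8 to 10 weeks, all homozygous for a floxed allele of Trib1, killed 1 week after a virus was injected and fasted for 4 hours. One group received AAV_Cre, an adeno-associated virus with the recombinase that cuts out floxed DNA, and the other received AAV_Null and kept the intact floxed alleles. The labels call the first group liver specific knockouts, and give neither the promoter that drives Cre nor the part of Trib1 that is floxed, nor whether an RNA came from 1 animal or a pool. Each of 4 two-colour arrays compared 1 AAV_Cre RNA with 1 AAV_Null RNA, and the dyes were turned round between arrays 1 and 2, where Cy5 marked AAV_Cre, and arrays 3 and 4, where Cy3 did. The study asked what hepatic Trib1, a pseudokinase that directs C/EBPα to the ubiquitin ligase COP1, does to lipid synthesis.

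No Trib1 probe fell by more than its SE in RNA labelled AAV_Cre. As the labels do not give the floxed part of the gene, these probes cannot check the label. In RNA labelled AAV_Cre the Trib1 probes at bases 2846 and 3033 of the same transcript were higher by 0.94 ± 0.08 and 1.29 ± 0.11 (log2 ratio ± SE, 4 arrays, limma adjusted p over all probes 0.0239 and 0.0243). The Trib1 probe at base 2972 of a different transcript differed by -0.05 ± 0.05. This dimmer probe lies at chr15:59485136-59485195 on the plus strand (mm9). That is upstream of both raised probes, at chr15:59487475-59487534 and chr15:59487662-59487721. AAV_Cre and AAV_Null below are therefore the labels of the RNA, and each direction rests on them. Each array had 43020 non-control spots, of which 51.0% to 55.3% in Cy5 and 53.1% to 58.7% in Cy3 were well above background. The correlation of log2 ratios across genes, which are not independent replicates, was 0.665 for the first pair of arrays and 0.489 for the second pair, but 0.0665 to 0.189 where the dyes were turned round. A dye effect was fitted for every probe, and 444 genes passed an adjusted p of 0.05, 287 higher and 157 lower in AAV_Cre.

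Kupffer cells are the macrophages that live in the liver sinusoids, where they take up bacteria, dying cells, opsonised particles and modified lipoproteins from the blood. The growth factor CSF1 and its receptor keep macrophages alive, PU.1 sets their lineage, and the resident cells are told from newly arrived monocytes by surface proteins such as CLEC4F, VSIG4 and TIM4. The list holds such identity genes, the complement subunits and Fc receptors that macrophages make, lysosomal and phagocyte enzymes, and genes shared with monocytes and other leukocytes. In whole liver RNA, fewer cells of a type and less RNA per cell cannot be told apart.

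The identity genes were present: Clec4f, Vsig4, Timd4, Cd5l and Marco were well above background in all 8 channels. Of the 32 members tested, 31 were, and Ccr2 was above it in 3 of 4 AAV_Cre and 3 of 4 AAV_Null channels.

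Of the 39 member probes that passed the filter, 7 are shown as examples of the patterns described below. Their 60 bases hold an open reading frame, as do those of many other member probes. Mpeg1 was higher in AAV_Cre on each array, C1qa, C1qb, Tyrobp and Folr2 were lower on 3 arrays and higher on array 3, and Fcgr3 and Lyz2 were lower on each array. Sequences are those of the array files, 5′ to 3′ on the transcript's strand, with mm9 coordinates from the same files.
Mpeg1: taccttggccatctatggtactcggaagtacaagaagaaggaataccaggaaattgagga
C1qa: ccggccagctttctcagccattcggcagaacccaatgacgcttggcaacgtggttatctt
C1qb: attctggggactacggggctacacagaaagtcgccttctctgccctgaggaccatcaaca
Tyrobp: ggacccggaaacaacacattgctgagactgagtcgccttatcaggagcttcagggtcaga
Folr2: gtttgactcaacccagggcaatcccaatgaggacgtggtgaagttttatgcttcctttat
Fcgr3: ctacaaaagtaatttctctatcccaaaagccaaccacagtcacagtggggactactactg
Lyz2: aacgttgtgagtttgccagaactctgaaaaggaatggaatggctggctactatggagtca

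The Mpeg1 probe lies at chr19:12537697-12537756 on the plus strand, from base 2257 of its transcript. The C1qa and C1qb probes lie on the minus strand of chromosome 4, at chr4:136452409-136452468 and chr4:136436578-136436637. The Tyrobp probe covers chr7:31200651-31202378 on the plus strand, a span wider than its 60 bases, so that it crosses an intron. The Folr2 probe lies at chr7:108988771-108988830, the Fcgr3 probe at chr1:172984129-172984188 and the Lyz2 probe at chr10:116719175-116719234, all on the minus strand. Of the 44 member probes, 1 shared a run of 20 or more bases with a probe of another gene on the array, an Itgam probe described below. The Fcgr3 probe shared at most 15 bases and the Lyz2 probe at most 16 with any other gene's probe. Probes were compared only with other probes of the array. Whether a probe also matches the transcript of a related gene outside its probes was not examined.

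None of the 32 members passed an adjusted p of 0.05 in limma, where 2.76% of all genes did. At an unadjusted p of 0.05 there were 6 members (Marco, Lyz2, Fcgr3, Mrc1, Cd14 and Mpeg1), or 18.8%, against 22.6% of all genes. At an adjusted p of 0.1 there were 2 members, Marco and Mpeg1, or 6.25%, against 8.00% of all genes. By these counts the members were called no more often than other genes. The signs lay further from the background: 26 of 32 fitted log2 ratios were below 0, or 81.2%, against 50.7% of all genes. Their median was -0.20 on the log2 scale, against -0.003 over all genes.

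This median was not the same on each array. The members' median log2 ratio of AAV_Cre over AAV_Null was -0.16 on array 1, -0.20 on array 2, 0.29 on array 3 and -0.59 on array 4, while the median over all genes stayed between -0.02 and 0.02. Of the 30 members with a value on every array, 17 were lower in AAV_Cre on arrays 1, 2 and 4 and higher on array 3, or 56.7%, a pattern that 7.81% of all genes had. These 17 were Aif1, C1qa, C1qb, C1qc, Cd5l, Cd74, Clec4f, Csf1r, Ctss, Emr1, Fcer1g, Fcgr1, Folr2, Marco, Timd4, Tyrobp and Vsig4. A single member, Mpeg1, was higher on 4 of 4 arrays, and 3 members, Fcgr3, Lyz2 and Ptprc, were lower on 4 of 4. Without array 4 the members' median was 0.02 and 12 of 32 were below 0, and without array 3 it was -0.40 with 28 of 32 below 0.

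**Figure D1:**
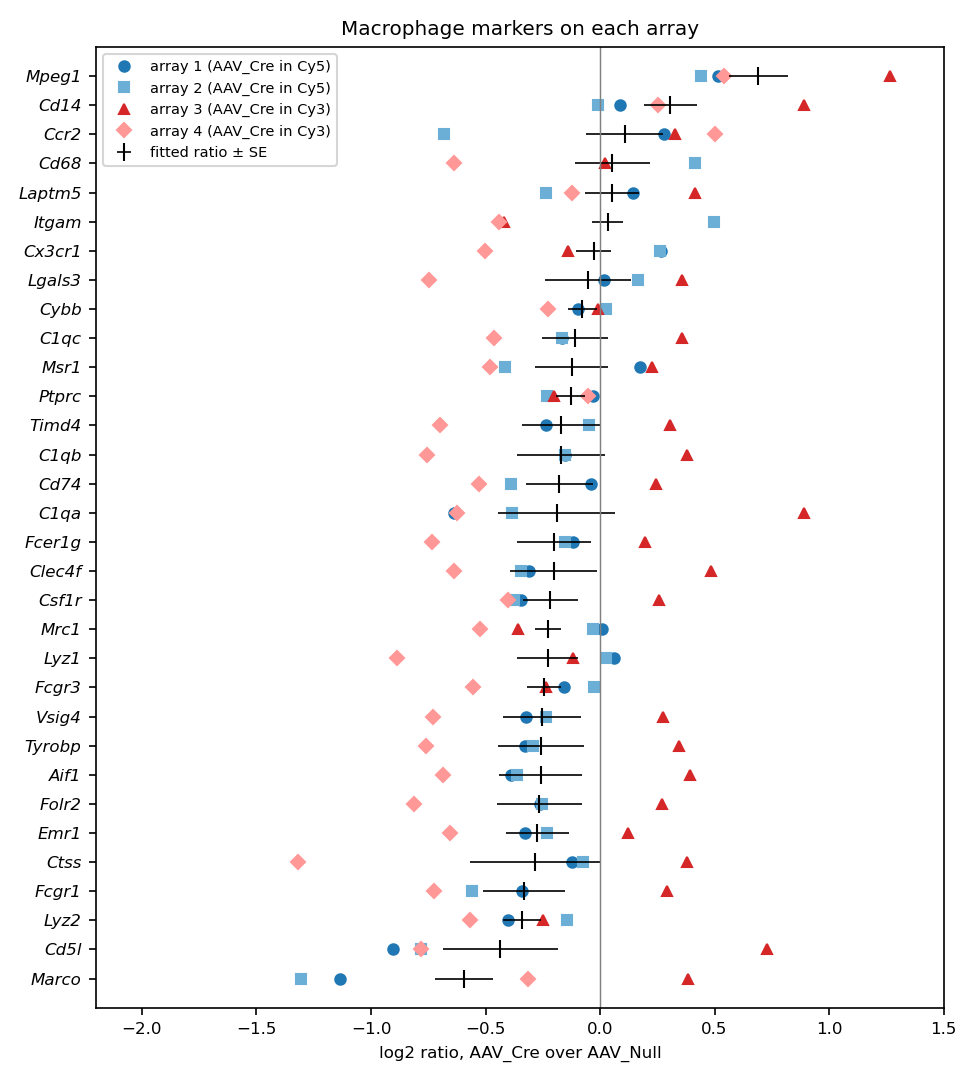
Log2 ratio of AAV_Cre over AAV_Null of the 32 tested members (rows, ordered by the fitted ratio) on each of the 4 arrays, with the fitted ratio ± SE in black. Array 3 lies right of the other arrays for most genes, and Mpeg1 is the gene with all 4 arrays clearly above 0.

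The levels of the 8 RNAs, read within a dye so that dye bias does not enter, show which RNAs were high and low. Within a dye, AAV_Cre RNAs come from 1 pair of arrays and AAV_Null RNAs from the other. A level difference between the array pairs therefore enters each comparison of the groups within a dye. As the median deviation of the members from the mean of their dye, the AAV_Cre RNAs of arrays 1 to 4 stood at -0.06, -0.43, 0.28 and -0.15, and the AAV_Null RNAs at 0.12, -0.20, 0.04 and 0.37 (log2 scale). The lowest was thus the AAV_Cre RNA of array 2 and the highest the AAV_Null RNA of array 4, and the AAV_Cre RNA of array 3 was the next highest. Of the 30 members measured in all RNAs, 0 had both AAV_Cre RNAs below both AAV_Null RNAs in each dye, against 4.33% of all genes, and 1 had them above, against 4.79% of all genes. That member was Mpeg1. The groups overlapped in at least 1 dye for 26 members, and for the other 3, Cybb, Lyz2 and Mrc1, AAV_Cre was below AAV_Null in Cy5 and above it in Cy3. For these 3, the RNAs of arrays 1 and 2 were thus below those of arrays 3 and 4 in each dye.

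Mpeg1, which encodes perforin-2, a pore-forming protein of macrophages and other phagocytes, went against most of the members. Its log2 intensity in Cy5 was 12.90 and 12.42 in the AAV_Cre RNAs, against 12.30 and 12.29 in the AAV_Null RNAs. In Cy3 it was 13.57 and 12.83 in AAV_Cre, against 12.38 and 11.98 in AAV_Null. The lowest AAV_Cre RNA was above the highest AAV_Null RNA of its dye in both dyes. The log2 ratios on arrays 1 to 4 were 0.52, 0.44, 1.27 and 0.54, with a fitted ratio of 0.69 ± 0.13 (SE, 4 arrays), or 1.61-fold, and an adjusted p of 0.0746.

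The Mpeg1 probe printed above, 1 of the gene's 2 and the dimmer, gave 0.62, 0.30, 0.95 and 0.63 on arrays 1 to 4. Its fitted ratio was 0.62 ± 0.09, with a limma p adjusted over all probes of 0.0499, against 0.0785 for the probe at base 3947 in the same adjustment. Both probes thus gave a higher level in AAV_Cre on 4 of 4 arrays, and the highest ratio on array 3. Leaving out each array gave fitted ratios of 0.51 to 0.87 for the probe at base 3947, with adjusted p of 0.0717 to 0.303. The adjusted p of this probe fell under 0.05 in several other settings and was 0.00539 at the lowest, in the fit of separate channels.

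**Figure D2:**
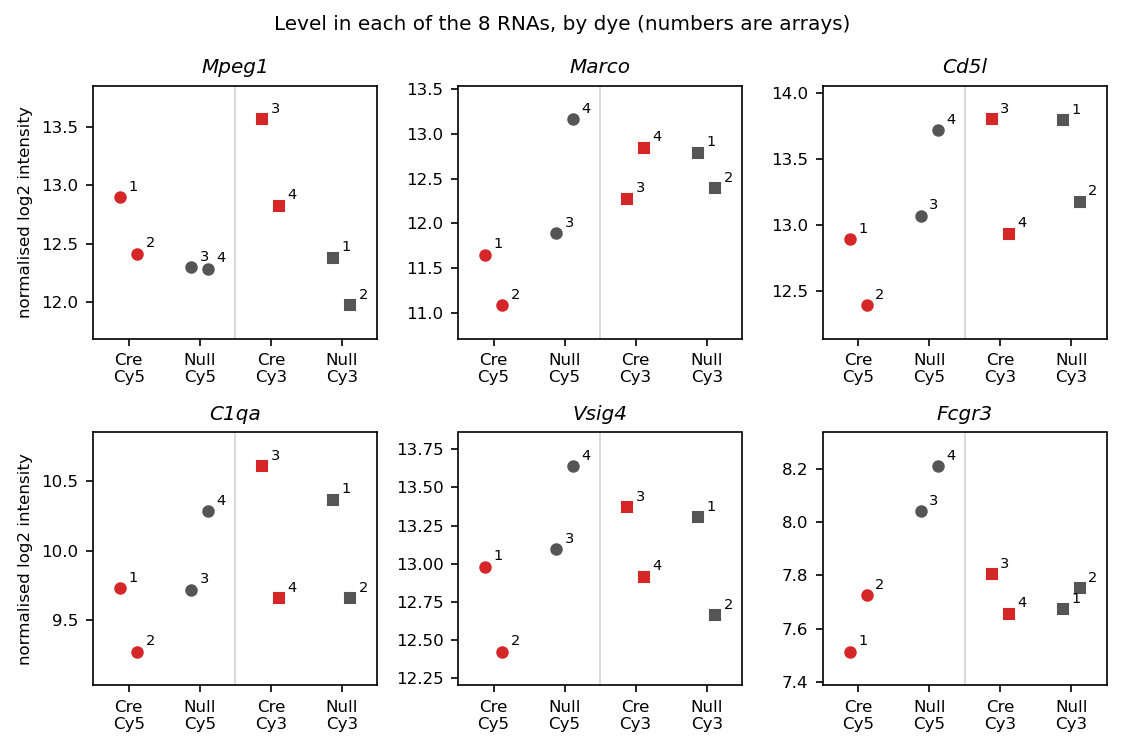
Normalised log2 intensity of 6 members in each RNA, with AAV_Cre in red left of AAV_Null in grey, Cy5 as circles, Cy3 as squares and the array number beside each point. Mpeg1 has its AAV_Cre RNAs above its AAV_Null RNAs in both dyes, and the groups of the other 5 genes overlap in at least 1 dye.

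The identity and scavenging genes held the lowest fitted ratios of the list, those of Marco and Cd5l. All 9 tested were below 0, with a median of -0.25. Marco, a class A scavenger receptor that binds bacteria, had log2 ratios of -1.14 and -1.31 on arrays 1 and 2, 0.38 on array 3 and -0.31 on array 4. Its log2 intensity in Cy5 was 11.65 and 11.09 in AAV_Cre, against 11.89 and 13.16 in AAV_Null, and in Cy3 it was 12.28 and 12.85 in AAV_Cre, against 12.79 and 12.40 in AAV_Null. The groups were apart in Cy5 and overlapped in Cy3. Its fitted ratio was -0.59 ± 0.13 (0.66-fold) with an adjusted p of 0.0919, and it was -1.22 over the arrays with AAV_Cre in Cy5 alone and 0.03 over those with AAV_Cre in Cy3 alone.

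Cd5l encodes a secreted scavenger protein that macrophages make in large amounts. It gave -0.90, -0.78, 0.73 and -0.78 on arrays 1 to 4, so that arrays 1, 2 and 4 lay close together and array 3 had the opposite sign, and its fitted ratio was -0.44 ± 0.25 (adjusted p = 0.377). Clec4f, a lectin that in mice marks Kupffer cells, gave -0.31, -0.35, 0.49 and -0.64. Vsig4, a complement receptor of resident macrophages, gave -0.32, -0.24, 0.28 and -0.73. The fitted ratios of Clec4f and Vsig4 were -0.20 ± 0.19 and -0.25 ± 0.17, neither past the threshold (adjusted p of 0.575 and 0.442).

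Timd4, a receptor for phosphatidylserine on dying cells, gave -0.24, -0.05, 0.31 and -0.70, and Folr2, a folate receptor of resident macrophages, gave -0.26, -0.25, 0.27 and -0.81. Emr1, the adhesion receptor by which mouse macrophages are commonly stained, gave -0.33, -0.23, 0.12 and -0.66. All 3 had the shape of Vsig4, with array 4 lowest and array 3 above 0. Their fitted ratios were -0.17 ± 0.17, -0.26 ± 0.18 and -0.27 ± 0.14, with adjusted p of 0.609, 0.453 and 0.320.

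Mrc1, the mannose receptor, which sinusoidal endothelial cells share with macrophages, did not have that shape. It gave 0.01 and -0.03 on arrays 1 and 2 and -0.36 and -0.52 on arrays 3 and 4, with a fitted ratio of -0.23 ± 0.06 (adjusted p = 0.113). It stood beside the markers of those endothelial cells, whose median over 16 genes was 0.12, -0.03, -0.33 and -0.25 on arrays 1 to 4, and their part in its ratio was not tested. Msr1, a class A scavenger receptor for modified lipoproteins, gave 0.17, -0.42, 0.23 and -0.48, and its second probe -0.11, -0.59, 0.29 and 0.03. Cd163, the receptor for haemoglobin bound to haptoglobin, had ratios of -0.34, -0.16, -0.13 and -0.33 with 4 of its 8 channels well above background, and no level is drawn from it.

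Csf1r, the receptor for CSF1, had 3 probes that did not move alike. The brightest, at base 3806, gave -0.35, -0.38, 0.26 and -0.40, with a fitted ratio of -0.22 ± 0.12 (adjusted p = 0.354). The probe at base 1841 gave 0.31, 0.37, -0.18 and -0.02, and the probe at base 2871 gave 0.06, 0.13, 0.19 and -0.40. The first 2 probes thus had opposite signs on arrays 1, 2 and 3, and no direction is given for Csf1r. Spi1, the gene of the lineage factor PU.1, was not matched by the rule. A probe under its older name Sfpi1 was not well above background in any of the 8 channels.

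**Figure D3:**
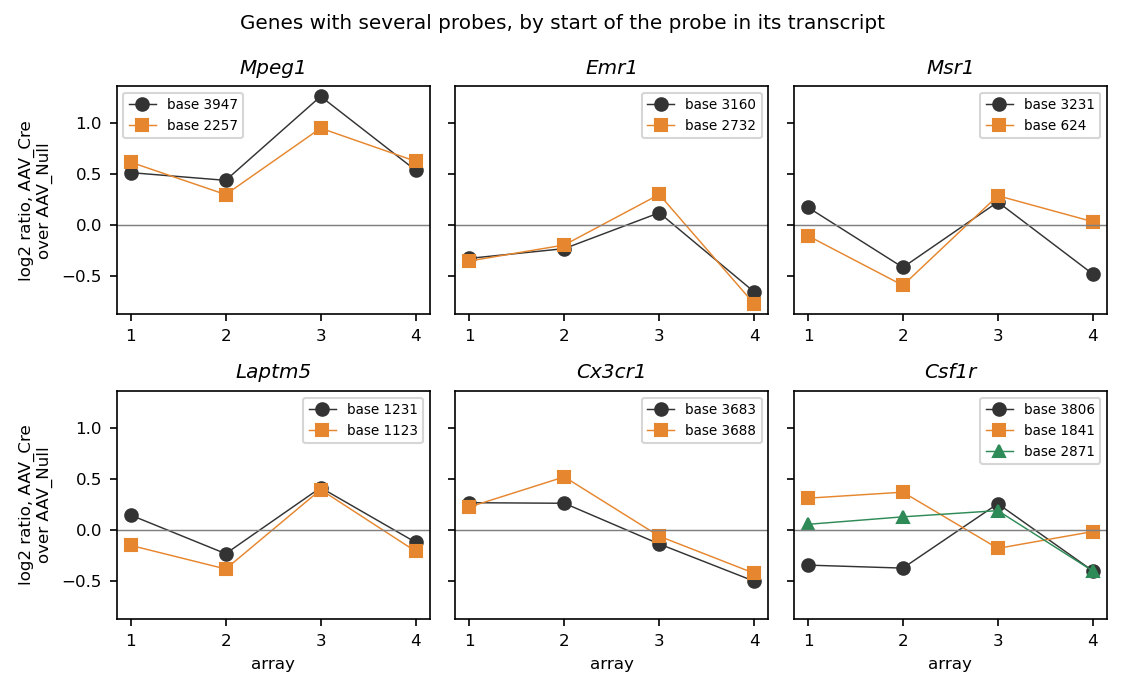
Log2 ratio of AAV_Cre over AAV_Null on arrays 1 to 4 for the 6 members with more than 1 tested probe, 1 line per probe, with the base at which the probe starts in its transcript. The probes of Mpeg1 and of Emr1 run together, and those of Csf1r cross.

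The C1q subunits are the 3 chains of the molecule that starts the classical complement pathway, and macrophages are their main source. C1qa gave -0.64, -0.39, 0.89 and -0.62 on arrays 1 to 4, and its array 3 stood far from the others. C1qb gave -0.15, -0.15, 0.38 and -0.76, and C1qc gave -0.16, -0.17, 0.36 and -0.46. All 3 subunits thus had the same order of signs, and their fitted ratios of -0.19 ± 0.26, -0.17 ± 0.19 and -0.11 ± 0.14 were each smaller than their SE. C1qa in Cy5 stood at 9.73 and 9.27 in AAV_Cre, against 9.72 and 10.28 in AAV_Null, and in Cy3 at 10.61 and 9.66 in AAV_Cre, against 10.37 and 9.66 in AAV_Null. The 2 groups overlapped in both dyes.

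Fc receptors bind antibody on opsonised particles and signal through adaptors with ITAM motifs. Fcgr3, a low-affinity IgG receptor, was lower in AAV_Cre on 4 of 4 arrays, at -0.16, -0.03, -0.24 and -0.56. Its log2 intensity in Cy5 was 7.51 and 7.73 in AAV_Cre, against 8.04 and 8.21 in AAV_Null, and in Cy3 it was 7.80 and 7.66 in AAV_Cre, against 7.67 and 7.75 in AAV_Null. The groups were apart in Cy5 and overlapped in Cy3, and the fitted ratio was -0.24 ± 0.07 (adjusted p = 0.158). Fcgr1, the high-affinity IgG receptor, gave -0.34, -0.56, 0.29 and -0.72, with a fitted ratio of -0.33 ± 0.18 (adjusted p = 0.344).

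The adaptors followed Fcgr1 rather than Fcgr3 in their signs. Fcer1g, the chain shared by activating Fc receptors, gave -0.12, -0.15, 0.20 and -0.74, and Tyrobp, the adaptor DAP12, gave -0.33, -0.29, 0.34 and -0.76. Their fitted ratios were -0.20 ± 0.16 and -0.26 ± 0.19 (adjusted p of 0.507 and 0.469). Of 11 further genes of ITAM signalling, 0 passed the test in either direction, 8 were below 0 and their median was -0.14. The smallest p among them was that of Fgr, a Src family kinase of myeloid cells, at -0.32 ± 0.06 and lower on 4 of 4 arrays (adjusted p = 0.0666).

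Among the lysosomal and phagocyte genes, 5 of 8 were below 0, with Mpeg1 at one end and Lyz2 at the other. Lyz2, the lysozyme of macrophages, gave -0.40, -0.14, -0.25 and -0.57, lower in AAV_Cre on 4 of 4 arrays, with a fitted ratio of -0.34 ± 0.08 (adjusted p = 0.111). Its log2 intensity in Cy5 was 7.15 and 7.28 in AAV_Cre, against 8.00 and 8.19 in AAV_Null, and in Cy3 it was 7.75 and 7.62 in AAV_Cre, against 7.55 and 7.42 in AAV_Null. The RNAs were thus lower in AAV_Cre than in AAV_Null in Cy5 and higher in Cy3. In each dye, the RNAs of arrays 1 and 2 lay below those of arrays 3 and 4. Lyz1, the lysozyme of Paneth cells and a close relative, gave 0.06, 0.03, -0.12 and -0.89. The Lyz1 probe was the brighter, at a mean log2 intensity of 12.18, against 7.63 for the Lyz2 probe. Whether either probe also reads the transcript of the other gene was not tested.

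Ctss, a protease that prepares MHC class II molecules for peptide, had the lowest single ratio of the list, -1.32 on array 4, beside -0.12, -0.08 and 0.38 on arrays 1 to 3. In Cy5 it stood at 12.06 and 11.74 in AAV_Cre, against 12.38 and 13.29 in AAV_Null, so that the AAV_Null RNA of array 4 was high. Cd74, the invariant chain of MHC class II, gave -0.04, -0.39, 0.25 and -0.53. Cybb, the membrane subunit of the phagocyte oxidase, was between -0.23 and 0.03 on the 4 arrays. Laptm5, a lysosomal membrane protein of blood cells, gave 0.15, -0.23, 0.42 and -0.12. Its second, dimmer probe gave -0.15, -0.38, 0.40 and -0.21. The fitted ratios of the 2 Laptm5 probes, 0.05 and -0.09, had opposite signs. Cd68, a lysosomal glycoprotein of macrophages, was measured on 3 arrays, at 0.41, 0.02 and -0.64 on arrays 2 to 4. None of these 5 passed the threshold, with adjusted p of 0.519 to 0.877.

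The genes of recruited cells and of leukocytes at large had a median near 0, at -0.03, with 4 of 7 below it. Cd14, the co-receptor for bacterial lipopolysaccharide, gave 0.09, -0.01, 0.89 and 0.25, and its fitted ratio of 0.31 ± 0.12 (adjusted p = 0.220) was the highest after that of Mpeg1. Ccr2, the receptor that brings monocytes from the marrow, gave 0.28, -0.68, 0.33 and 0.50 at a dim signal. Cx3cr1, a chemokine receptor of monocytes and some resident macrophages, gave 0.27, 0.26, -0.14 and -0.50, and its second probe, which overlaps the first, followed it. Both receptors had ratios of either sign, and neither passed the threshold.

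Ptprc encodes CD45, which all white blood cells carry. It gave -0.03, -0.23, -0.20 and -0.05, lower in AAV_Cre on 4 of 4 arrays by little, with a fitted ratio of -0.13 ± 0.06 (adjusted p = 0.316). Aif1, the IBA1 protein of macrophages, gave -0.39, -0.36, 0.39 and -0.68, and Lgals3, galectin-3, gave 0.02, 0.16, 0.36 and -0.75. Itgam, the CD11b integrin chain, had 3 probes, of which those at bases 270 and 3410 were not well above background in any channel. The bright probe at base 4431, whose longest run shared with another gene's probe was 22 bases, gave 0.50, -0.42 and -0.44 on arrays 2 to 4, and no direction is given for Itgam.

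Genes of the same biology outside the list were described from other lists. Of 26 other macrophage genes tested, 0 passed the test in either direction, 21 were below 0, and 12 had the pattern of lower on arrays 1, 2 and 4 and higher on array 3. The smallest p among them was that of Mertk, a receptor for dying cells, at -0.23 ± 0.06 (adjusted p = 0.108). Of 7 Kupffer cell regulators tested, 0 passed and 5 were below 0, with a median of -0.11. Of 5 macrophage growth factors and receptors, 0 passed, with Csf2rb, the common chain of the GM-CSF receptor, at -0.39 ± 0.12 (adjusted p = 0.166). Of 12 lysosomal genes, 0 passed and 6 were below 0, with the protease Ctsd at 0.27 ± 0.05 (adjusted p = 0.0718). Ctsd gave -0.12, -0.09, 0.68 and 0.62 on arrays 1 to 4, so its sign turned with the dyes. Of 8 MHC class II genes, 0 passed and 5 were below 0, with H2-DMa, which loads peptide, at -0.28 ± 0.14 (adjusted p = 0.332).

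Chemokines held the single macrophage-related call outside the list. Of 10 tested, 1 was lower, 0 were higher, and all 10 fitted ratios were below 0. Ccl9, a CC chemokine that macrophages and other myeloid cells secrete, gave -0.55, -1.05, -1.004 and -0.83 on arrays 1 to 4. In Cy5 it stood at 11.75 and 11.51 in AAV_Cre, against 12.19 and 12.57 in AAV_Null, and in Cy3 at 11.19 and 11.73 in AAV_Cre, against 12.30 and 12.57 in AAV_Null. The groups did not overlap in either dye. Ccl9 fell by 0.86 ± 0.10 on the log2 scale (0.55-fold, limma adjusted p = 0.0322).

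Markers of other cells moved with the members on some arrays. The median of the 24 interferon-stimulated genes tested was -0.31, -0.27, 0.59 and -0.50 from the first array to the fourth, and 18 of them were lower on arrays 1, 2 and 4 and higher on array 3. The 7 neutrophil genes tested of 10 listed had medians of -0.22, -0.29, 0.87 and -0.40, and 4 of them had this pattern. The median on array 3 was the value of Mpo, well above background in 1 of 4 AAV_Cre and 3 of 4 AAV_Null channels. On arrays 1 and 4 the median was the value of Csf3r and of Elane. Their mean log2 intensities were 14.81 and 14.72, against 6.94 to 11.33 for the other neutrophil genes tested. Elane gave 0.30, 0.39, -0.37 and -0.40 on arrays 1 to 4, so its sign turned with the dyes. The 5 monocyte genes tested of 8 listed had medians of -0.20, -0.02, 0.72 and -0.58, and 2 of them had the pattern. The part of any of these in the members' ratios was not tested. By contrast, 0 of 16 sinusoidal endothelial, 0 of 10 stellate and 0 of 8 T and NK cell genes had the pattern, while 3 of 6 B cell and 3 of 6 dendritic cell genes had it. Hepatocyte genes, with 3 of 12 in the pattern, had medians between -0.36 and 0.14.

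None of the tested genes of these lists passed the threshold, with 1 exception. Col3a1, a collagen of stellate cells, was 0.47 ± 0.06 higher in AAV_Cre (adjusted p = 0.0439). The genes of smallest p elsewhere were Bst2 at -0.38 ± 0.10 among interferon-stimulated genes, Csf3r at -0.15 ± 0.05 among neutrophil genes and Fn1 at -0.27 ± 0.12 among monocyte genes. Clec4g, a lectin of sinusoidal endothelium, stood at -0.35 ± 0.06 and Alb, the hepatocyte's albumin, at -0.39 ± 0.07. For dendritic, T and B cells they were Ccr7 at 0.17 ± 0.08, Cd3d at 0.21 ± 0.09 and Cd79a at 0.14 ± 0.05, all with adjusted p above that of Clec4g, 0.0628. The signs of Alb, Cd3d and Cd79a turned with the dyes, so their fitted ratios are no steady change. On arrays 1 to 4 Alb gave 0.39, 0.27, -0.95 and -1.27. Cd3d gave -0.16, -0.17, 0.79 and 0.36, and Cd79a 0.40, 0.49, -0.13 and -0.21.

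**Figure D4:**
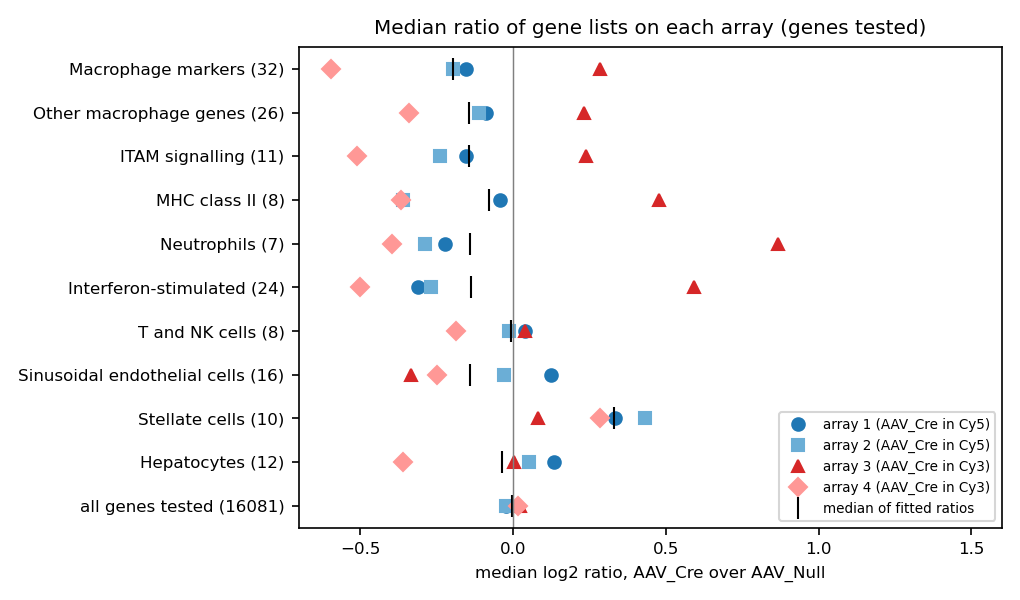
Median log2 ratio of AAV_Cre over AAV_Null of the macrophage markers and of other gene lists on each of the 4 arrays, with the number of genes tested in brackets and the median of the fitted ratios as a black line. The macrophage markers, other macrophage genes and interferon-stimulated genes have array 3 above 0 and the other arrays below. So do the ITAM signalling, MHC class II and neutrophil genes. The median of all genes is near 0 on each array.

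Promoters were read because many members moved together. RefSeq's table for GRCm38.p6, with 250 bases before and 50 after each gene's start, held 26 of the 34 members and lacked Cd14, Tyrobp, Cd74, Spi1, Adgre1, Csf1r, C1qa and Msr1. The motif GAGGAA, the core of sites that PU.1 and related factors bind, was searched on both strands as the only motif. It was in 15 of these 26 members, or 57.7%, against 31.3% of the 27025 genes in the table. Vsig4, of the shared array pattern, and Mpeg1, the exception, are shown by the 250 bases before their starts, at chrX:96293439-96293688 on the minus strand and chr19:12460520-12460769 on the plus strand, with GAGGAA in capitals.
Vsig4: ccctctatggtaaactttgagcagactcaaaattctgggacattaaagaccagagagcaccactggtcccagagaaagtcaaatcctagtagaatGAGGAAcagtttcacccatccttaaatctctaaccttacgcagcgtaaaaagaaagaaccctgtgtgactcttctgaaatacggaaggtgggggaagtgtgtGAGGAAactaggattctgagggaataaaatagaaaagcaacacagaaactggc
Mpeg1: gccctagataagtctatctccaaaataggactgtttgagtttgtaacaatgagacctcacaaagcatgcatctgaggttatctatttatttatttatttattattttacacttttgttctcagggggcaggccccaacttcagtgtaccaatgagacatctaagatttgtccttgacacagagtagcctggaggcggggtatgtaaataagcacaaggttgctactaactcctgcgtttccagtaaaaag

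The Vsig4 window held the motif 2 times and the Mpeg1 window 0 times. These are matches of letters in 1 window and describe no binding. Clec4f, Fcer1g, Folr2 and Timd4, which shared the array pattern of Vsig4, also lacked the motif. Aif1, C1qb, C1qc, Cd5l, Ctss, Fcgr1 and Marco, of the same pattern, held it. The other genes of the pattern had no promoter to read.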

How the data were processed

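Per the file headers, Agilent Feature Extraction 11.5.1.1 measured the intensity and local background of each spot in both dyes. Its log10 ratio came from its processed intensity, per the file headers. The authors also deposited log2 values. Their slopes against the scanner's log2 ratio of Cy5 over Cy3 were 1.01, 1.01, -0.99 and -1.03 on arrays 1 to 4, so they run as AAV_Cre over AAV_Null, with medians of -0.02, -0.04, 0.04 and 0.04. The submitters' processing notes name limma, and the steps are not given in the sources used here.

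Here, mean intensities were background-corrected by normexp (offset 50) and normalised by loess in limma 3.58.1 (R 4.3.3). Spots marked as outliers were left out, and spots of 1 probe averaged. A probe entered if well above background in 3 of 4 AAV_Cre or 3 of 4 AAV_Null channels, with values on 3 arrays. The log2 ratio was fitted with dye and treatment effects (lmFit, eBayes), and a gene was its brightest probe. Benjamini-Hochberg adjustment ran over 16081 genes. The fit had 2 residual and 2.66 prior degrees of freedom, and the median SE was 0.06. A difference between the RNA pairs of the 2 dye orientations goes into the dye effect, not into the SE. Levels per RNA came from Aquantile and have no test. The p-values rest on the spread between the 2 arrays of each dye orientation, moderated by the prior, and not on the spread over all 4. All arrays lay on 1 slide. Which of the labelling procedures in the labels' protocols was used was not settled.

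Symbols came from a RefSeq table of GRCm38.p6. The members and lists were chosen with earlier results of these data known. Every member is described. Of each other list, up to 2 called genes of largest change were named, or the gene of smallest p, of which 1 is not reported here. Analysis steps were tested on simulated data.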

Additional observations from a re-analysis of the deposited data

Results flagged for a closer look

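Some genes had 1 array far from the other 3, and it was array 3 in each. C1qa stood at 0.891 on array 3, against -0.638 to -0.386 on the others. Cd5l stood at 0.727, against -0.902 to -0.782. The bright Csf1r probe, which alone made up the tested part of the lineage and growth factor receptor group, stood at 0.258, against -0.403 to -0.346. Mpeg1 stood at 1.27, against 0.440 to 0.540, and differs from these in having the same sign on every array. The median of the neutrophil genes, which on array 3 was the value of Mpo, stood at 0.868 there, against -0.396 to -0.223. Of 53 values examined 6 met this rule, where chance gives about 2.65, and genes that move together are not independent. The Csf1r value entered the 6 as a gene and again as the median of its group. The counts therefore do not show an excess over chance.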

How the results depend on the processing

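The count of all genes called, 444, was 270 without a dye effect, 731 from processed signals, 1403 without background correction, 756 with median centring, 2529 with separate channels, 1382 from the deposited log2 values, 1471 with empirical Bayes trend and robust, and 1287 at an adjusted p of 0.1. Leaving out each array gave 0 to 37. The members called, 0 as reported, were 2 (Marco and Mpeg1) without background correction, with median centring, from the deposited values and at 0.1. They were 2 (Mpeg1 and Mrc1) with trend and robust, 1 (the second Mpeg1 probe) with each probe by itself, and 4 (Fcgr3, Lyz2, Marco and Mpeg1) with separate channels. The cause was not tested. Leaving out any 1 array gave 0 members called. Median centring moved the share of all genes below 0 to 43.5%, from 50.7%. The members' median stayed below 0 in every setting but one, and was between -0.401 and 0.0244 with each array left out. The value above 0 came without array 4, where 14 of 32 members changed sign. Without array 3, 23 of 32 members had an unadjusted p under 0.05 in limma, and 0 an adjusted one. The share of all genes under it in that setting is not given here, so the 23 cannot be weighed against a background. Among single members, 463 values with an adjusted p kept their side of the threshold and 12 crossed it with the same direction, and the 64 values from 1 dye orientation alone have no test. The ratio within an array already pairs its AAV_Cre RNA with its AAV_Null RNA, so no further block was fitted. The 4 arrays and a single slide limit what can be called.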
